A study of Mus musculus with 18 samples.

Results

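The PGC-1 coactivators and the factors of mitochondrial biogenesis that act with them were followed across 6 treatments of mouse brown adipocytes by RNA-seq. The 9 genes were chosen by name, with earlier results of these data known: the coactivators Ppargc1a, Ppargc1b and Pprc1, the transcription factors Esrra, Nrf1 and Gabpa, and the mitochondrial DNA factors Tfam, Tfb1m and Tfb2m. All 9 were found among the 20295 genes of the count table, and all 9 were among the 12156 genes with enough counts to be tested. The cells were BAT-LgT, a single line of wild-type mouse brown preadipocytes immortalised with SV40 large T antigen, which had been differentiated to day 7 with dexamethasone, isobutylmethylxanthine, T3 and insulin. They were treated for 3 h with Vehicle (DMSO), with isoproterenol, an agonist of all β-adrenergic receptors (ISO, 100 nM), or with SR-3420, a ligand of ABHD5 that activates the triglyceride lipase ATGL without a receptor signal. SR-3420 is given as 10 µM in the labels and at another dose in the study's text, and which dose these samples received was not settled here. The same 3 treatments followed 1 h of combined inhibition of ATGL and of hormone-sensitive lipase, and these groups bear the prefix Lipase Inh.; each of the 6 groups had 3 samples. The comparison asks which members answer to the β-adrenergic signal, which to the release of fatty acids, and which to the signal only when that release is blocked.

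PGC-1α, the product of Ppargc1a, is a coactivator that binds nuclear receptors and other transcription factors on DNA and recruits the machinery of transcription; in brown fat it is known as a cold- and cAMP-inducible driver of thermogenic and mitochondrial genes. PGC-1β (Ppargc1b) shares most of its partners and is known for keeping up mitochondrial gene expression at rest, and PRC (Pprc1) is a growth-responsive relative. Their known partners ERRα (Esrra), nuclear respiratory factor 1 (Nrf1) and the GABPα subunit of nuclear respiratory factor 2 (Gabpa) act on nuclear genes of respiration and on Tfam, Tfb1m and Tfb2m. TFAM packages mitochondrial DNA and starts its transcription together with TFB2M, whereas TFB1M is a methyltransferase of the mitochondrial small ribosomal RNA.

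The DNA before the start of 3 genes is shown: that of Ppargc1a, which had the largest rise with ISO among the 9 genes, that of Esrra, which passed with ISO under lipase inhibitors and not without them, and that of Tfam, a known target of GABP. Each run holds 250 bases read 5′ to 3′ in the direction of the gene, up to the base before the start listed in the count table (mm9). The Ppargc1a window lies at chr5:51945161-51945410 on the minus strand. The Esrra window lies at chr19:6996299-6996548 and the Tfam window at chr10:70700793-70701042, both on the minus strand. The letters of 5 motifs were searched on both strands, and a match is in capitals.
Ppargc1a: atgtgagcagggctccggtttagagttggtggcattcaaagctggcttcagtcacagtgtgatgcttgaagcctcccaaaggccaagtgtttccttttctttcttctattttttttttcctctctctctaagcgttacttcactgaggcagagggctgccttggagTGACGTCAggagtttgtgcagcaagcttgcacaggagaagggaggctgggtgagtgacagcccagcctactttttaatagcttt
Esrra: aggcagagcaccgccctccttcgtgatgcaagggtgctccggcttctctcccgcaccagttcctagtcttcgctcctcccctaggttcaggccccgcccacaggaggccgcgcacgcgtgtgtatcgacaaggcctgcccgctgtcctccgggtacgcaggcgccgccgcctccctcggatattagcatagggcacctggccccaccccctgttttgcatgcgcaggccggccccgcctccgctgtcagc
Tfam: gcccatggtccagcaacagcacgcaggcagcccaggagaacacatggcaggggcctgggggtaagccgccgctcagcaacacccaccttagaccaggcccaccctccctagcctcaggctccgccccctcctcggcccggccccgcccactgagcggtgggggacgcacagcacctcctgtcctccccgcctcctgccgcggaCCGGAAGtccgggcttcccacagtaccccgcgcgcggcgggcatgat
The capitals in Ppargc1a are the cAMP response element TGACGTCA at -84 to -77, which holds its shorter core TGACG once on each strand. Of 19785 starts in the count table outside 1 chromosome that was not read, 2.15% had the full element and 21.1% the core. The capitals in Tfam are the ETS core CCGGAAG at -47 to -41, the kind of site GABP binds, which 9.61% of starts had. The ETS core also occurred before Gabpa, at -93 to -87, and the core TGACG occurred before Tfb1m at -174 to -170 and at -129 to -125. No other window of the 8 members read held any of the 5 motifs, which included the ERR element AAGGTCA (3.34% of starts) and the NRF1 element (5.49%). RefSeq on GRCm38.p6 lists another start for Ppargc1a, 13804 bp upstream of the start in the count table, with this sequence before it at chr5:51567726-51567975 on the minus strand.
Ppargc1a, upstream start: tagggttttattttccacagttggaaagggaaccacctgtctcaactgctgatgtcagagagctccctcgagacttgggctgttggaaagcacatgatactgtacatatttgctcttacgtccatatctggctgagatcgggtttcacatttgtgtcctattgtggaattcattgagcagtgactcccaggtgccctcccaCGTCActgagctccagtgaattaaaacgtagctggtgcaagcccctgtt
Its capitals mark the core TGACG, read on the opposite strand at -49 to -45. The counts are sums over the exons of the listed gene model, so they do not say from which start the Ppargc1a mRNA was made. These are matches of letters, with no data here on binding.

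Total counts lay between 10310447 and 21205032 in 17 libraries. The other was far shallower: replicate 2 of Lipase Inh. + SR-3420 had 4263755 counts, of which the gene Lars2 took 18.3%, against 0.0397% to 0.121% in the others, and tests of the members in that group are given with and without it. Markers of mature adipocytes were high in every library (summed level of 7 genes 10438 to 15980 CPM, read counts relative to the size of the library), and brown markers such as Cidea and Ebf2 were present. The brown marker Zic1 had 0 to 2 counts per library and Cox7a1 at most 2.47 CPM. Ucp1 and Elovl3 were low with Vehicle, at 2.69 and 4.34 CPM on average, whereas Ppara was at 252 CPM. The summed level of 9 brown markers, which include the stimulation-responsive Ucp1, Elovl3 and Ppara, was 427 to 603 CPM with Vehicle, 1152 to 1499 with ISO and 952 to 1182 with SR-3420. Of 5 macrophage or leukocyte markers, Ptprc was at 0 in all libraries, and Emr1 and Itgam had at most 1 and 2 counts. Csf1r had 0 to 14 counts per library, and Cd68 was at 1.96 to 5.88 CPM. The summed level of 3 endothelial markers did not exceed 0.524 CPM. The 6 preadipocyte or fibroblast markers summed to 197 to 210 CPM with SR-3420 and to 118 to 183 CPM in the other groups, and their part in the SR-3420 results was not tested. In bulk RNA, fewer cells of a kind and less RNA per cell cannot be told apart. Levels below are CPM of libraries scaled by trimmed mean of M values (TMM), and changes are log2 fold changes with their standard error (SE) from edgeR's quasi-likelihood test, adjusted by Benjamini-Hochberg over the 12156 genes. A gene passed at an adjusted p of at most 0.05.

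ISO raised all 3 coactivators, Nrf1, Gabpa and Tfam and lowered Tfb1m. With lipases inhibited, ISO still raised Ppargc1a and Pprc1 but less, lowered Ppargc1b, and raised Esrra, Gabpa and Tfam more than without inhibitors. SR-3420 raised the 3 coactivators, Nrf1 and Tfam and lowered Tfb1m and Tfb2m, and with inhibitors only the rises of Ppargc1a and Ppargc1b passed. In counts, 6 members were higher and 1 lower with ISO, where 26.8% of all genes tested were higher and 25% lower. With SR-3420, 5 were higher and 2 lower, against 26% and 25.4% of all genes. For ISO under inhibitors, 5 were higher and 2 lower, against 29.4% and 28.3%. For SR-3420 under inhibitors, 2 were higher and 0 lower, against 2.99% and 1.36%. The inhibitors alone changed 0 of 9 members in edgeR and 0 in DESeq2, and 1 member had an unadjusted p under 0.05; over all genes 0.485% were higher and 0.428% lower. The difference of the ISO effect with and without inhibitors passed for 3 members upward and 3 downward, against 14.9% and 16.6% of all genes. The same difference for SR-3420 passed for 1 member upward and 2 downward, against 12.5% and 14.8%. Directly compared, 3 members were higher with ISO than with SR-3420 and 1 was lower, against 15.8% and 13.9%. The split by direction depends on the scaling of libraries. With libraries scaled by their totals, the rises of Nrf1, Gabpa and Tfam with ISO did not pass. A fall of Tfb2m with ISO then did (-0.35, adjusted p = 0.010). These counts are descriptions, and the account below rests on each gene's size and direction of change.

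**Figure D1:**
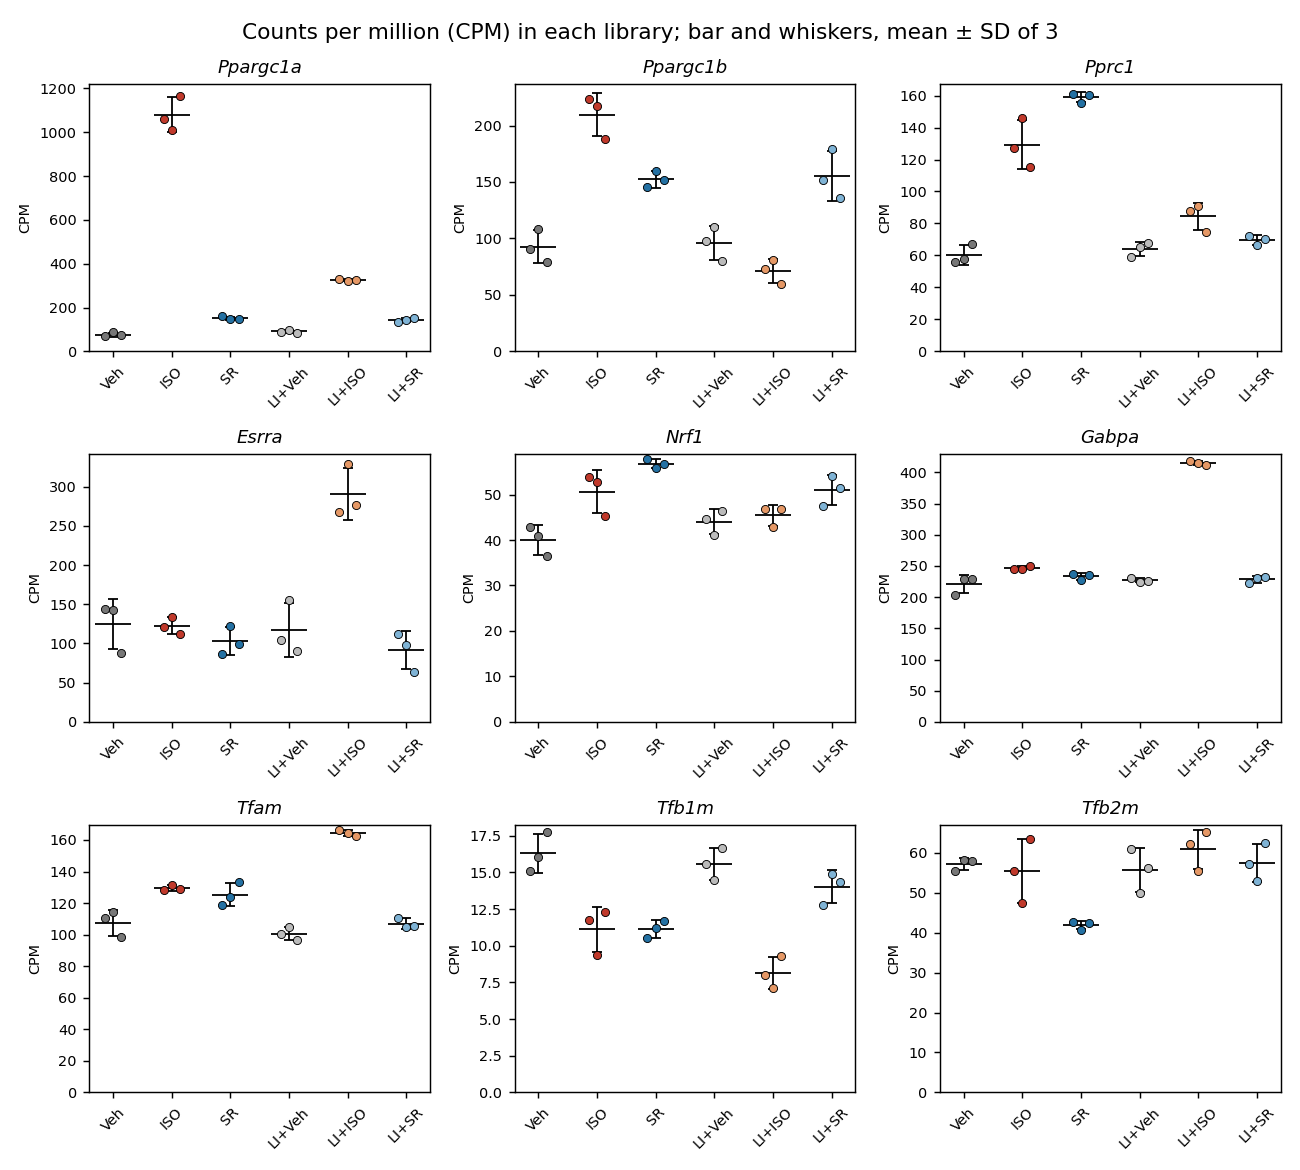
CPM of the 9 genes (vertical axes, starting at 0) in each of the 18 libraries by group (Veh, Vehicle; SR, SR-3420; LI, lipase inhibitors); points are libraries, bars and whiskers the mean ± SD of 3. Ppargc1a stood at 1011 to 1167 CPM in the ISO libraries and at no more than 332 CPM in any other library, whereas Esrra, Gabpa and Tfam were highest in Lipase Inh. + ISO.

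Ppargc1a was at 68.1, 86.6 and 72.4 CPM in the 3 Vehicle samples and at 1063, 1011 and 1167 CPM in the 3 ISO samples. With inhibitors the samples stood at 90.5, 97.8 and 83.8 CPM without and at 332, 322 and 325 CPM with ISO. The ISO groups were thus far above their controls in both settings and did not overlap each other. The rise was 14.3-fold without inhibitors (log2 fold change 3.84 ± 0.09 SE, adjusted p = 9.9e-19) and 3.60-fold with them (1.85 ± 0.08, adjusted p = 5.1e-14). The effect with inhibitors minus that without was -1.99 ± 0.12 on the log2 scale (adjusted p = 3.6e-11), so inhibition took away part of the ISO rise and left Ppargc1a above its control.

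SR-3420 brought Ppargc1a to 159, 147 and 149 CPM, and to 136, 143 and 153 CPM with inhibitors. These ranges overlapped each other and lay above both control groups. The change was 1.01 ± 0.08 (adjusted p = 2.5e-09) without and 0.67 ± 0.08 (adjusted p = 3.2e-05) with inhibitors, and 0.68 (adjusted p = 0.00021) without the shallow library. The difference between these effects, -0.34 ± 0.12 (adjusted p = 0.038), rested on single libraries. It missed the threshold without Vehicle replicate 1 or 3, SR-3420 replicate 1 or 3, Lipase Inh. + Vehicle replicate 1 or 2, or Lipase Inh. + SR-3420 replicate 1 or 2, at values from -0.35 to -0.26, and also with only the compared groups fitted (-0.33, adjusted p = 0.064) and with libraries scaled by their totals (-0.28, adjusted p = 0.15). Ppargc1a was 7.11-fold higher with ISO than with SR-3420 (2.83 ± 0.08, adjusted p = 3.2e-16).

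Ppargc1b took another course. Its samples were at 90.8, 109 and 79.0 CPM with Vehicle and at 223, 217 and 188 CPM with ISO, a rise of 1.17 ± 0.13 (adjusted p = 8.7e-08). With inhibitors it was at 98.1, 110 and 80.4 CPM without ISO and at 72.8, 80.8 and 59.7 CPM with ISO. These last groups overlapped slightly, and each ISO sample was below the control of its own number. The change was -0.44 ± 0.13 (adjusted p = 0.0058), and it was -0.32 (adjusted p = 0.057) without Lipase Inh. + ISO replicate 3. The difference of the ISO effect was -1.62 ± 0.18 (adjusted p = 4.5e-07). The rise with ISO was thus replaced by a fall when lipases were inhibited.

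SR-3420 gave Ppargc1b levels of 145, 160 and 152 CPM, and of 152, 179 and 136 CPM with inhibitors. Both ranges were above their controls and overlapped each other. The changes were 0.71 ± 0.13 (adjusted p = 7.3e-05) and 0.68 ± 0.13 (adjusted p = 0.0024), and the latter was 0.58 (adjusted p = 0.017) without the shallow library. Their difference was -0.03 ± 0.18 (adjusted p = 0.91), and with libraries scaled by their totals it turned to 0.01. Ppargc1b was 1.38-fold higher with ISO than with SR-3420 (0.46 ± 0.12, adjusted p = 0.0073).

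Pprc1 was the only coactivator with a higher mean under SR-3420 than under ISO. It was at 55.7, 57.9 and 67.3 CPM with Vehicle, at 127, 146 and 115 CPM with ISO and at 161, 155 and 160 CPM with SR-3420. The rises were 1.104 ± 0.09 (adjusted p = 1.7e-09) and 1.40 ± 0.09 (adjusted p = 5.8e-11). ISO was lower than SR-3420, with a log2 difference of -0.30 ± 0.09 (adjusted p = 0.014) with no overlap of the samples, but this missed the threshold without ISO replicate 1 (-0.28, adjusted p = 0.052) or ISO replicate 3 (-0.22, adjusted p = 0.080).

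Inhibition removed most of the Pprc1 response to both agents. Under inhibitors it was at 59.1, 65.01 and 67.6 CPM with Vehicle, at 88.0, 90.6 and 74.5 CPM with ISO and at 72.4, 66.4 and 70.5 CPM with SR-3420. The ISO samples remained above the control, and those with SR-3420 overlapped it. The change with ISO was 0.40 ± 0.09 (adjusted p = 0.00085), which fell to 0.17 (adjusted p = 0.17) with libraries scaled by their totals, and that with SR-3420 was 0.13 ± 0.09 (adjusted p = 0.55), or 0.16 (adjusted p = 0.52) without the shallow library. The differences with and without inhibitors were -0.71 ± 0.13 (adjusted p = 0.00021) for ISO and -1.27 ± 0.13 (adjusted p = 3.9e-07) for SR-3420. Among the coactivators, only Pprc1 therefore had a response to SR-3420 whose reduction by the inhibitors passed under each alternative tried.

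**Figure D2:**
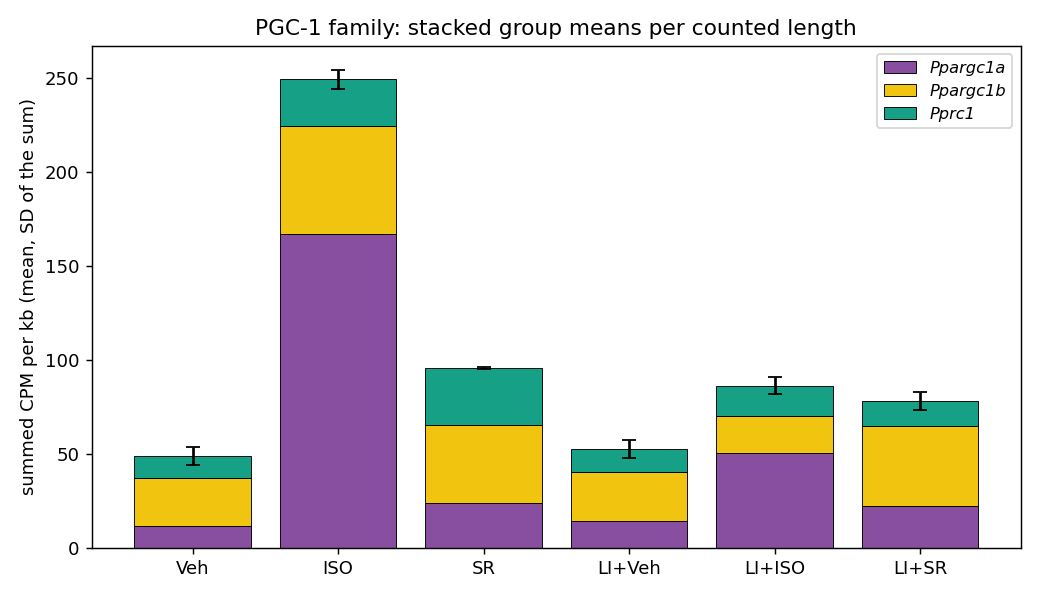
Mean CPM per kb of counted length (vertical axis) of the 3 PGC-1 family genes, stacked for each of the 6 groups (horizontal axis); the whisker is the SD of the sum over 3 samples. The sum rose from 48.6 with Vehicle to 249 with ISO, of which Ppargc1a made up 67.04%.

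Per kb of counted length, the scale on which levels of different genes can be set side by side, the 3 coactivators summed to 48.6 ± 4.83 CPM per kb (SD, n = 3) with Vehicle. Ppargc1b was the most abundant of them, at 52.1 ± 4.13% of the sum, and Ppargc1a and Pprc1 took 24.1 ± 1.01% and 23.9 ± 3.93%. With ISO the sum was 249 ± 5.13 and Ppargc1a took 67.04 ± 3.62% of it. With inhibitors and ISO the sum was only 86.0 ± 4.53, but Ppargc1a still took 58.8 ± 3.22%. With SR-3420 the sum was 95.5 ± 0.494 and the order was that of Vehicle at its head, with Ppargc1b at 43.6 ± 1.85% and Pprc1 at 31.8 ± 0.781%. The stacked plot of the family shows both the larger sum with ISO and the change of its leading gene.

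Esrra, the nuclear receptor through which PGC-1 acts on many genes of respiration, was the most variable member within groups, with a coefficient of variation of up to 29.6%. It was at 144, 142 and 88.0 CPM with Vehicle, at 121, 134 and 113 CPM with ISO and at 86.9, 122 and 99.0 CPM with SR-3420. These groups overlapped. The changes were -0.03 ± 0.20 (adjusted p = 0.92) with ISO and -0.29 ± 0.20 (adjusted p = 0.24) with SR-3420, and the latter was -0.48 (adjusted p = 0.044) without Vehicle replicate 3.

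Under inhibitors Esrra was at 104, 156 and 90.2 CPM with Vehicle, at 268, 328 and 276 CPM with ISO and at 112, 98.6 and 64.1 CPM with SR-3420. Every Lipase Inh. + ISO sample was above every other sample of the study. The change with ISO was 1.32 ± 0.20 (adjusted p = 7.0e-06) and its difference from the effect without inhibitors was 1.35 ± 0.28 (adjusted p = 0.0008). The change with SR-3420 was -0.36 ± 0.21 (adjusted p = 0.43), or -0.41 (adjusted p = 0.45) without the shallow library. The Esrra gene (chr19:6985467-6996298, minus strand, mm9) overlaps Trmt112 on the other strand by 50 bp at its 3′ end, and whether reads were counted by strand is not stated. Trmt112 was at 57.3 ± 3.55 CPM with inhibitors alone and at 57.2 ± 1.32 CPM with inhibitors and ISO (SD, n = 3).

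Gabpa, which encodes the DNA-binding subunit of GABP, had the tightest replicates in the group where it was highest. It was at 204, 229 and 229 CPM with Vehicle and at 246, 244 and 250 CPM with ISO, and with inhibitors at 231, 225 and 226 CPM without and at 419, 414 and 412 CPM with ISO. The rise with inhibitors was 0.87 ± 0.06 (adjusted p = 1.9e-11), with no sample near its control. The rise of 0.16 ± 0.06 without inhibitors (adjusted p = 0.022) was fragile: it was 0.11 (adjusted p = 0.12) without Vehicle replicate 1, 0.15 (adjusted p = 0.056) without ISO replicate 3, 0.16 (adjusted p = 0.081) with no filter on low counts, 0.15 (adjusted p = 0.13) with only the compared groups fitted, and it turned to -0.15 with libraries scaled by their totals. The difference of the ISO effect was 0.71 ± 0.08 (adjusted p = 4.5e-07). SR-3420 gave 227 to 238 CPM and changes of 0.08 ± 0.06 (adjusted p = 0.23) without and 0.01 ± 0.06 (adjusted p = 0.96) with inhibitors, both below 0 under scaling by totals. The start of Gabpa (chr16:84835369-84864023, plus strand) overlaps Atp5j, a subunit of ATP synthase on the other strand, by 451 bp. Atp5j was at 87.9 ± 3.66 CPM with inhibitors alone and at 100.6 ± 6.57 CPM with inhibitors and ISO, a smaller step than that of Gabpa.

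Nrf1, a regulator of nuclear genes of respiration, moved little. It was at 43.0, 40.8 and 36.4 CPM with Vehicle, at 53.9, 52.7 and 45.3 CPM with ISO and at 57.8, 55.8 and 56.7 CPM with SR-3420, with no overlap with the Vehicle samples. The changes were 0.34 ± 0.08 (adjusted p = 0.0018) and 0.50 ± 0.08 (adjusted p = 3.3e-05), and that with ISO was 0.03 (adjusted p = 0.79) with libraries scaled by their totals. With inhibitors the changes were 0.04 ± 0.08 (adjusted p = 0.68) with ISO, which turned to -0.18 under scaling by totals, and 0.20 ± 0.09 (adjusted p = 0.24) with SR-3420. The differences from the effects without inhibitors, -0.29 ± 0.12 (adjusted p = 0.062) and -0.30 ± 0.12 (adjusted p = 0.065), did not pass. They did pass without 1 library: for ISO without Vehicle replicate 1 (-0.35, adjusted p = 0.039), ISO replicate 3 (-0.36, adjusted p = 0.023) or Lipase Inh. + Vehicle replicate 2 (-0.34, adjusted p = 0.045), and for SR-3420 without Vehicle replicate 1 (-0.36, adjusted p = 0.039) or Lipase Inh. + Vehicle replicate 2 (-0.34, adjusted p = 0.048).

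**Figure D3:**
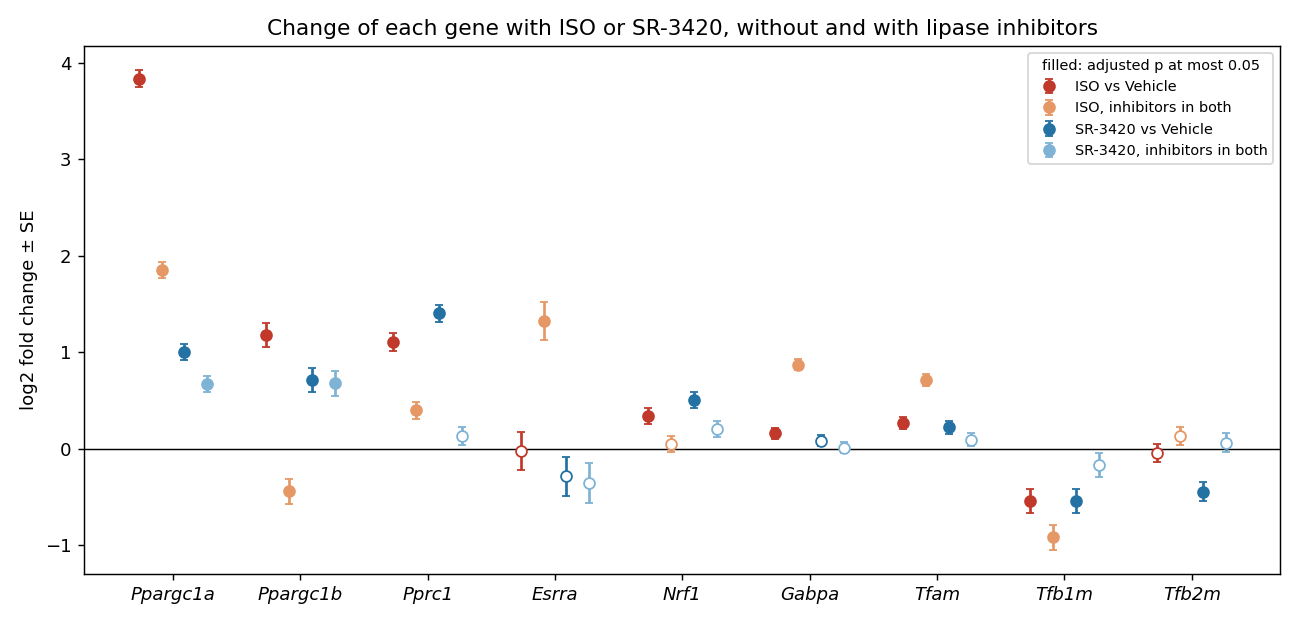
Log2 fold change ± SE (vertical axis) of the 9 genes (horizontal axis) with ISO and with SR-3420, each against its own control without and with lipase inhibitors; filled points passed at an adjusted p of at most 0.05. Inhibitors lowered the ISO effect for Ppargc1a from 3.84 to 1.85 and raised it for Esrra from -0.03 to 1.32.

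Tfam, the packaging and transcription factor of mitochondrial DNA, was like Gabpa in its changes with ISO, whereas with SR-3420 Tfam passed and Gabpa did not. It was at 110, 114 and 98.3 CPM with Vehicle and at 128, 132 and 129 CPM with ISO, a rise of 0.27 ± 0.06 (adjusted p = 0.0014) that turned to -0.04 with libraries scaled by their totals. With inhibitors it was at 100, 105 and 96.8 CPM without and at 166, 164 and 162 CPM with ISO. The Lipase Inh. + ISO samples were the highest of the study for this gene. The rise there was 0.71 ± 0.06 (adjusted p = 4.5e-09), larger than without inhibitors by 0.44 ± 0.09 (adjusted p = 0.00074). With SR-3420 the samples were at 119, 124 and 133 CPM, a rise of 0.22 ± 0.06 (adjusted p = 0.0068), which was 0.16 (adjusted p = 0.055) without Vehicle replicate 3, 0.17 (adjusted p = 0.054) without SR-3420 replicate 3 and 0.06 (adjusted p = 0.59) under scaling by totals. With inhibitors the change with SR-3420 was 0.09 ± 0.07 (adjusted p = 0.56).

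Tfb1m, the member with the fewest counts (56 to 288 per library, over a counted length of 1192 bp), was the only one that fell with ISO in both settings. It was at 15.1, 16.1 and 17.7 CPM with Vehicle, at 11.7, 9.40 and 12.3 CPM with ISO and at 10.5, 11.2 and 11.7 CPM with SR-3420. Both agents left it below every Vehicle sample, with log2 changes of -0.55 ± 0.12 (adjusted p = 0.00085) and -0.54 ± 0.12 (adjusted p = 0.00081). With inhibitors it was at 15.6, 14.5 and 16.6 CPM with Vehicle, at 8.01, 7.14 and 9.28 CPM with ISO and at 12.8, 14.9 and 14.4 CPM with SR-3420. The fall with ISO was -0.92 ± 0.13 (adjusted p = 2.0e-06) and the change with SR-3420 was -0.17 ± 0.13 (adjusted p = 0.58). Neither difference with and without inhibitors passed, at -0.37 ± 0.18 for ISO (adjusted p = 0.12), which was -0.48 (adjusted p = 0.044) without ISO replicate 2, and 0.37 ± 0.17 for SR-3420 (adjusted p = 0.12). The Tfb1m gene contains the small gene Cldn20 on the other strand, at 0.637 to 1.84 CPM on average in the 6 groups, and overlaps Tiam2 by 142 bp. Tiam2 was at 22.2 ± 3.16 CPM with Vehicle, 15.97 ± 0.931 with ISO and 22.0 ± 1.59 with SR-3420, and at 23.7 ± 2.33 with inhibitors alone and 26.5 ± 2.68 with inhibitors and ISO (SD, n = 3). Its mean was lower with ISO without inhibitors, as that of Tfb1m was, and was not lower with ISO under inhibitors, and its part in the Tfb1m counts was not tested.

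Tfb2m, the transcription initiation partner of TFAM, passed the test with SR-3420 and not with ISO. It was at 55.5, 58.1 and 57.96 CPM with Vehicle and at 42.6, 40.8 and 42.5 CPM with SR-3420, a fall of -0.45 ± 0.10 (adjusted p = 0.00052). With inhibitors it was at 60.9, 50.01 and 56.1 CPM without and at 57.1, 53.03 and 62.5 CPM with SR-3420, which overlapped. The change was 0.06 ± 0.10 (adjusted p = 0.82). The difference of the SR-3420 effect was 0.51 ± 0.14 (adjusted p = 0.0078), the one upward difference among the members that passed for this agent. Its changes with ISO were -0.05 ± 0.10 (adjusted p = 0.71) without and 0.13 ± 0.09 (adjusted p = 0.24) with inhibitors. Under scaling by totals these were -0.35 (adjusted p = 0.010) and -0.09. Tfb2m was 1.32-fold higher with ISO than with SR-3420 (0.40 ± 0.10, adjusted p = 0.0032), which was 0.26 (adjusted p = 0.091) under scaling by totals.

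Without the shallow library, the changes with SR-3420 under inhibitors were 0.17 for Nrf1 (adjusted p = 0.43), 0.0023 for Gabpa (adjusted p = 0.99), 0.10 for Tfam (adjusted p = 0.56), -0.20 for Tfb1m (adjusted p = 0.56) and 0.10 for Tfb2m (adjusted p = 0.70), none past the threshold. The differences of the SR-3420 effect without it were -1.24 for Pprc1 (adjusted p = 2.2e-06) and 0.55 for Tfb2m (adjusted p = 0.0067), which passed as they did with it, and -0.33 for Ppargc1a (adjusted p = 0.064), which did not. For the other members they were -0.14 for Ppargc1b, -0.12 for Esrra, -0.33 for Nrf1, -0.081 for Gabpa, -0.12 for Tfam and 0.35 for Tfb1m, where with all libraries they were -0.035, -0.073, -0.30, -0.073, -0.13 and 0.37, and none of these passed either way.

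The inhibitors alone moved no member past the threshold. Changes lay between -0.11 ± 0.20 for Esrra and 0.26 ± 0.08 for Ppargc1a (unadjusted p = 0.0055, adjusted p = 0.20). Ppargc1a was higher with inhibitors in 3 of 3 same-numbered samples, and without Vehicle replicate 2 its change was 0.37 (adjusted p = 0.035).

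The scaling of libraries set the sign of small changes. Under scaling by total counts, the median of all genes moved by -0.31 for ISO, -0.16 for SR-3420, -0.23 for ISO with inhibitors and -0.15 for ISO against SR-3420 on the log2 scale. The share of passing genes that were higher was 51.7% for ISO with TMM and 19.9% with totals, 50.6% and 30.8% for SR-3420, 51.0% and 27.8% for ISO with inhibitors, 68.8% and 33.1% for SR-3420 with inhibitors, 53.2% and 42.0% for the inhibitors alone, and 53.1% and 20.3% for ISO against SR-3420. For the difference of the ISO effect it was 47.3% and 58.6%. The changes of Ppargc1a with both agents, of Esrra, Gabpa and Tfam with ISO under inhibitors, and of Tfb1m with both agents without inhibitors passed in the same direction under either scaling.

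**Figure D4:**
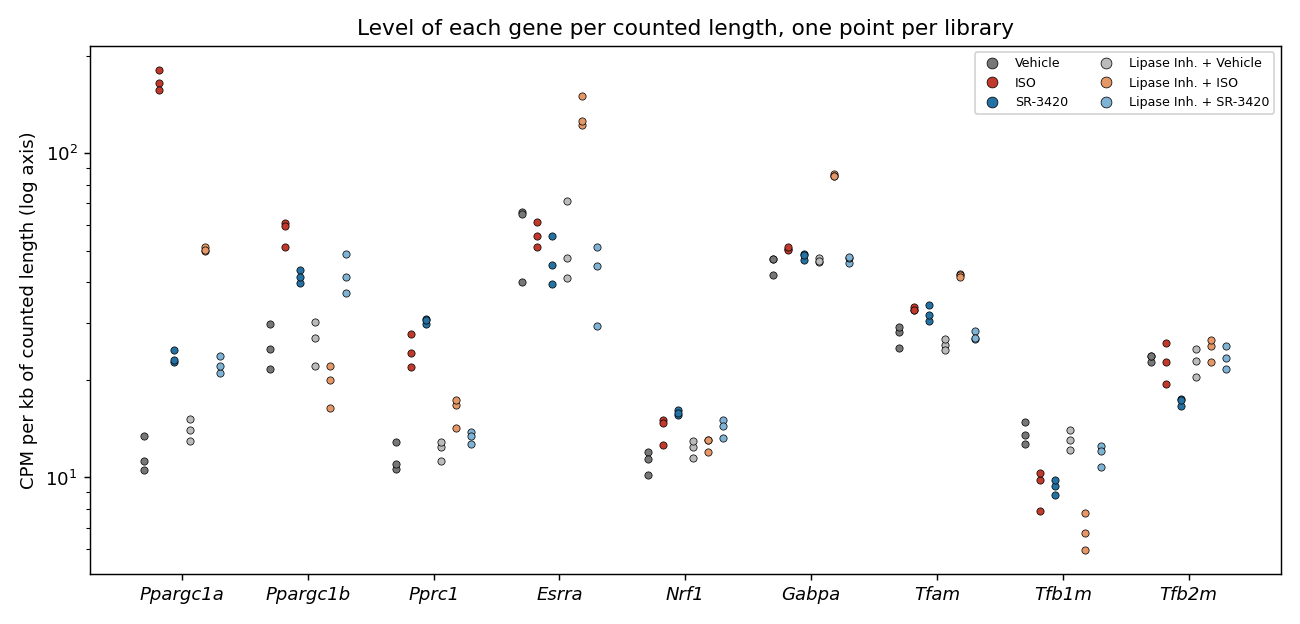
CPM per kb of counted length (vertical log axis) of the 9 genes (horizontal axis), 1 point per library, coloured by group. Ppargc1a ran from 11.7 CPM per kb on average with Vehicle to 167 with ISO, the widest range of the 9 genes.

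Per kb of counted length in Vehicle samples, Esrra (56.9 CPM per kb) and Gabpa (45.4) stood highest, and their samples overlapped. Tfam (27.5), Ppargc1b (25.4) and Tfb2m (23.4) followed as a group of near levels. Tfb1m (13.7), Ppargc1a (11.7), Pprc1 (11.5) and Nrf1 (11.2) were lowest, the last 3 within each other's spread. With ISO, Ppargc1a became the most abundant member at 167 CPM per kb. With ISO and inhibitors, Esrra (133) and Gabpa (85.3) were above Ppargc1a (50.5). Between the lowest and the highest group mean the span was 14.3-fold for Ppargc1a, 3.17-fold for Esrra, 2.95-fold for Ppargc1b, 2.64-fold for Pprc1 and 2.00-fold for Tfb1m. It was 1.88-fold for Gabpa, 1.63-fold for Tfam, 1.45-fold for Tfb2m and 1.42-fold for Nrf1. The plot of levels per length shows these spans side by side.

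The genes whose log2 CPM ran most like those of the members over the 18 samples were sought among 9402 genes. The 18 points share 6 treatments, so the coefficients describe a pattern over treatments. For Ppargc1a the nearest genes were Elmod2 (Pearson r = 0.98), Akap13 (0.97) and Lamtor3 (0.96). Elmod2, which encodes a regulator of ARF GTPases, was at 174 ± 10.6 CPM with Vehicle, 700 ± 36.3 with ISO and 322 ± 10.3 with ISO and inhibitors (SD, n = 3). For Ppargc1b they were Sash1 (0.95), Ppara (0.94) and 3110062M04Rik (0.94). For Pprc1 they were Isg20l2 (0.99), which encodes a nucleolar exonuclease of ribosomal RNA processing, Ppp2r2a (0.98) and Ythdf1 (0.98). For Esrra they were Atg4d (0.98), a protease of autophagy, Mrps23 (0.97), a mitochondrial ribosomal protein, and Lrp10 (0.96). Atg4d was at 50.03 ± 3.84 CPM with ISO and inhibitors and at 25.0 to 30.0 CPM on average in the other groups.

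**Figure D5:**
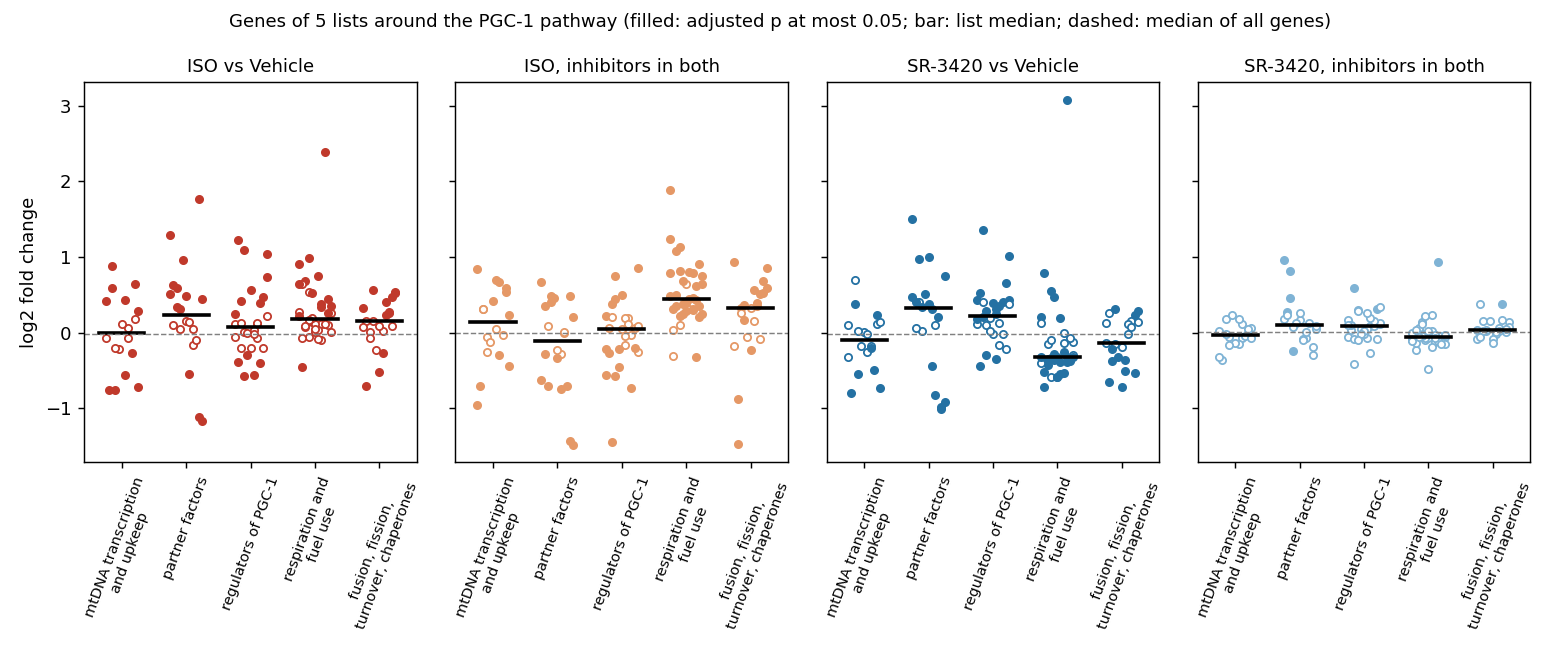
Log2 fold change (vertical axis) of the genes of 5 lists (horizontal axis) with ISO and with SR-3420, without and with lipase inhibitors; filled points passed at an adjusted p of at most 0.05, black bars are list medians and the dashed line the median of all genes. The respiration list had its median at 0.44 for ISO with inhibitors and at -0.32 for SR-3420 without them.

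The factors that PGC-1 proteins coactivate, or that act on the same targets, gave 20 tested genes of 24, the others (Esrrb, Esrrg, Thrb and Mef2c) having too few counts. With ISO 10 were higher and 3 lower (50% and 15%, where all genes tested had 26.8% and 25%), at a median log2 fold change of 0.24 beside -0.02 for all genes. Irf4, the cAMP-induced partner of PGC-1α in thermogenic fat, rose from 179 ± 36.4 to 608 ± 82.8 CPM (1.76 ± 0.15, adjusted p = 3.6e-09), and Ppara, the fatty acid-sensing receptor, from 252 ± 55.1 to 619 ± 45.3 CPM (1.30 ± 0.15, adjusted p = 3.4e-07). Rxra, the shared partner of many nuclear receptors, and the thyroid hormone receptor Thra fell, with log2 changes of -1.17 ± 0.07 (adjusted p = 1.7e-11) and -1.12 ± 0.10 (adjusted p = 5.2e-09). With SR-3420 11 were higher and 5 lower (55% and 25%, all genes 26% and 25.4%, median 0.32 beside -0.02). Irf4 fell by 0.99 on the log2 scale (adjusted p = 1.8e-05) while Ppara rose by 1.498 ± 0.15 (adjusted p = 5.8e-08). Thra and Rxra fell with SR-3420 as with ISO, with log2 changes of -1.01 (adjusted p = 2.3e-08) and -0.91 (adjusted p = 1.1e-09). With ISO and inhibitors 7 were higher and 8 lower (35% and 40%, all genes 29.4% and 28.3%, median -0.12 beside -0.01). The difference of the ISO effect passed for 1 upward and 11 downward (5% and 55%, all genes 14.9% and 16.6%, median -0.35 beside 0.01). Ppara, like Ppargc1b, fell with ISO under inhibitors (-0.63 ± 0.15, adjusted p = 0.0013) and rose with SR-3420 under inhibitors (0.96 ± 0.15, adjusted p = 0.00044).

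Among 28 regulators of PGC-1, which are modifying enzymes, corepressors and upstream factors, 9 were higher and 5 lower with ISO (median 0.07 beside -0.02). These are 32.1% and 17.9% of the list, near the 26.8% and 25% of all genes. With SR-3420 14 were higher and 3 lower (50% and 10.7%, all genes 26% and 25.4%; median 0.22 beside -0.02), 17 in all, which were 9 under scaling by totals. Ncoa1, a coactivator of nuclear receptors, rose with ISO by 1.22 ± 0.07 (adjusted p = 4.7e-12) and Lpin1, which amplifies PGC-1α signalling and makes diacylglycerol, by 1.097 ± 0.10 (adjusted p = 7.3e-09). Crtc1, a CREB coactivator, and Kat2a, an acetyltransferase of PGC-1α, fell, with log2 changes of -0.57 ± 0.11 (adjusted p = 0.00013) and -0.56 ± 0.13 (adjusted p = 0.00091). Ncoa1, Lpin1, Crtc1 and Kat2a also passed in these directions with SR-3420, with smaller changes (0.52, 0.29, -0.29 and -0.35). The corepressor Nrip1 (RIP140) was at 317 ± 34.5 CPM with Vehicle, 424 ± 8.79 with ISO, 814 ± 56.6 with SR-3420 and 138 ± 6.48 with ISO and inhibitors. It rose with SR-3420 by 1.36 ± 0.07 (adjusted p = 2.8e-12) and fell with ISO under inhibitors, with a log2 change of -1.44 ± 0.07 (adjusted p = 4.8e-13). Mapk14, the p38α kinase that acts on PGC-1α, fell with SR-3420, with a log2 change of -0.44 ± 0.06 (adjusted p = 1.7e-06). It also fell with ISO (-0.40, adjusted p = 5.4e-06) and with ISO under inhibitors (-0.28, adjusted p = 0.00027). With ISO and inhibitors 6 were higher and 9 lower (21.4% and 32.1%, all genes 29.4% and 28.3%, median 0.05 beside -0.01). The difference of the ISO effect passed for 1 upward and 8 downward (3.57% and 28.6%, all genes 14.9% and 16.6%, median -0.05 beside 0.01).

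Nuclear genes of respiration and fuel use known as ERR, NRF1 or GABP targets numbered 36, all tested. With ISO 13 were higher and 1 lower (36.1% and 2.78%, all genes 26.8% and 25%), at a median of 0.18 beside -0.02. Scaling by totals moved the median of all genes by -0.31 for ISO, a larger step than the ISO median of any of the 5 lists. List medians under that scaling were not calculated, so the upward medians with ISO hold for TMM scaling alone. With ISO and inhibitors 29 were higher and 1 lower (80.6% and 2.78%, all genes 29.4% and 28.3%), at a median of 0.44 beside -0.01, and under scaling by totals 17 passed in either direction. The difference of the ISO effect passed for 13 upward and 1 downward (36.1% and 2.78%, all genes 14.9% and 16.6%, median 0.30 beside 0.01). With SR-3420, in contrast, 6 were higher and 19 lower (16.7% and 52.8%, all genes 26% and 25.4%, median -0.32 beside -0.02). ISO against SR-3420 had 31 higher and 1 lower (86.1% and 2.78%, all genes 15.8% and 13.9%, median 0.47 beside -0.01). The difference of the SR-3420 effect passed for 8 upward and 2 downward (22.2% and 5.56%, all genes 12.5% and 14.8%, median 0.23 beside 0.01). These 10 were 5 without SR-3420 replicate 1 and 6 without SR-3420 replicate 3 or Lipase Inh. + Vehicle replicate 3. Most of the list was higher with ISO under inhibitors, the group in which Esrra, Gabpa and Tfam were highest. The match was partial. With ISO alone Esrra did not pass (-0.03). Nrf1 was highest with SR-3420 and Tfam rose there (0.22), where 19 list genes were lower. No test of a link was made.

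Among its genes Pdk4, the kinase that inhibits the pyruvate dehydrogenase complex, stood apart, at 545 ± 8.43 CPM with Vehicle, 2863 ± 164 with ISO, 4609 ± 67.9 with SR-3420 and 466 ± 80.1 with ISO and inhibitors. Tomm70a, a receptor of the outer membrane import machinery, rose with ISO by 0.98 ± 0.07 (adjusted p = 8.2e-11) and with ISO and inhibitors by 1.13 ± 0.07 (adjusted p = 5.4e-12). Its rise with SR-3420 was 0.55 ± 0.07 (adjusted p = 7.2e-07). Cox8b, a brown fat subunit of cytochrome oxidase, fell with ISO, with a log2 change of -0.46 ± 0.16 (adjusted p = 0.017) and with SR-3420, with a log2 change of -0.72 ± 0.16 (adjusted p = 0.00054). Chosen after their values were seen, Alas1, the first enzyme of haem synthesis, and Cycs, cytochrome c, rose with ISO under inhibitors by 1.88 ± 0.09 (adjusted p = 2.3e-13) and 1.24 ± 0.08 (adjusted p = 2.2e-11).

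Of 18 genes for transcription, replication and RNA upkeep of mitochondrial DNA, 6 were higher and 5 lower with ISO (median -0.01 beside -0.02). These are 33.3% and 27.8% of the list, near the 26.8% and 25% of all genes. Under inhibitors and ISO 8 were higher and 4 lower (44.4% and 22.2%, all genes 29.4% and 28.3%; median 0.14 beside -0.01). With SR-3420 2 were higher and 5 lower (11.1% and 27.8%, all genes 26% and 25.4%; median -0.10 beside -0.02), or 4 in all without Vehicle replicate 1. The mitochondrial RNA-binding protein gene Ptcd3 rose with ISO by 0.64 ± 0.10 (adjusted p = 9.1e-06) and Mterf3, a repressor of mitochondrial transcription, by 0.60 ± 0.09 (adjusted p = 6.1e-06). Mterf1a and Mterf2, of the same protein family, fell, with log2 changes of -0.76 ± 0.15 (adjusted p = 0.00022) and -0.56 ± 0.13 (adjusted p = 0.0011). With SR-3420 Mterf3 and Ptcd3 also rose, by 0.37 (adjusted p = 0.0011) and 0.24 (adjusted p = 0.046). Mterf1a fell there too (-0.55, adjusted p = 0.0031), and Mterf2 did not pass (-0.26, adjusted p = 0.096). With ISO and inhibitors Mterf1a and Mterf2 were at -0.06 ± 0.14 and 0.05 ± 0.12, neither past the threshold, and the difference of the ISO effect was 0.70 (adjusted p = 0.012) and 0.61 (adjusted p = 0.013). The transcripts of mitochondrial DNA itself were not analysed here.

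Of 21 genes for fusion, fission, turnover and chaperones of mitochondria, 9 were higher and 3 lower with ISO (42.9% and 14.3%, all genes 26.8% and 25%; median 0.15 beside -0.02). Under inhibitors and ISO 12 were higher and 3 lower (57.1% and 14.3%, all genes 29.4% and 28.3%; median 0.33 beside -0.01), and with SR-3420 3 were higher and 8 lower (14.3% and 38.1%, all genes 26% and 25.4%; median -0.13 beside -0.02). Hspe1, the chaperonin lid of the matrix, and Dnm1l, the fission GTPase, rose with ISO by 0.57 ± 0.12 (adjusted p = 0.00045) and 0.54 ± 0.09 (adjusted p = 1.9e-05). Both also rose with SR-3420, by 0.31 (adjusted p = 0.035) and 0.28 (adjusted p = 0.0091). Oma1, a stress-activated protease of the inner membrane, and Pink1, the kinase that marks damaged mitochondria, fell with ISO. Their log2 changes were -0.71 ± 0.17 (adjusted p = 0.0014) and -0.52 ± 0.07 (adjusted p = 7.5e-07). Both genes fell with SR-3420 as well, with log2 changes of -0.65 ± 0.17 (adjusted p = 0.0025) and -0.71 ± 0.07 (adjusted p = 1.1e-08). ISO against SR-3420 had 13 higher and 0 lower (61.9% and 0%, all genes 15.8% and 13.9%, median 0.24 beside -0.01). These 13 were 7 without ISO replicate 2, 6 without SR-3420 replicate 3 and 2 under scaling by totals.

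With SR-3420 under inhibitors 2.99% of all genes tested were higher and 1.36% lower. The partner list had 4 higher and 1 lower (20% and 5%; median 0.11 beside 0.0025), the regulators 3 higher and 0 lower (10.7% and 0%; median 0.09), and the respiration, mitochondrial DNA and upkeep lists 1, 0 and 1 higher and 0 lower. The 5 passing partners were 2 without Lipase Inh. + Vehicle replicate 1 or the shallow library, and 3 without Lipase Inh. + Vehicle replicate 2 or 3 or Lipase Inh. + SR-3420 replicate 1 or 3. The 3 regulators were 1 without Lipase Inh. + Vehicle replicate 1 or the shallow library, and 5 without ISO replicate 3. The respiration gene that passed was Pdk4 (0.93 ± 0.09, adjusted p = 2.0e-06), and 2 genes of that list passed without Lipase Inh. + Vehicle replicate 2 or Lipase Inh. + SR-3420 replicate 1. With only the compared groups fitted 2 partners passed, under scaling by totals 1 regulator and 0 upkeep genes, and by DESeq2 5 regulators and 2 respiration genes. The regulator Nrip1 (0.58 ± 0.07, adjusted p = 3.2e-05) and the partner Ppara rose beside Ppargc1a and Ppargc1b. The inhibitors alone changed 0 genes of the 5 lists in edgeR, where 13 of 123 had an unadjusted p under 0.05, by DESeq2 1 regulator and 1 upkeep gene passed, and with no filter on low counts 1 upkeep gene.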

How the data were processed

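RNA was measured in 18 samples of BAT-LgT brown adipocytes. The authors extracted total RNA with TRIzol, prepared TruSeq libraries, aligned reads to mm9 with STAR 2.4.2a, made tag directories with HOMER, which keeps 1 read per position and length, and used iRNA-seq to count the reads of each RefSeq gene. Of the genes as deposited, 839, 2 of the 9 members among them, had over 2 reads per counted base in at least 1 library, more than such a limit allows for reads of 1 length on both strands, so its use for these counts was not settled. The deposited values are whole-number counts, neither normalised nor filtered, and 0 columns belonged to other samples. Starts in the table count from 0 and are printed from 1.

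Samples were grouped by title. The tests used edgeR 4.0.16 under R 4.3.3: filterByExpr (minimum count 10, minimum total 15), TMM factors, and glmQLFit and glmQLFTest in a joint model of the 18 samples in which every group had its own mean, adjusted by Benjamini-Hochberg at 0.05. Errors of levels are SD over 3 samples, which the methods of the study call independent experiments. The members and the 5 lists were chosen with earlier results of these data known, so counts within lists are descriptions, with no test of the list. Named list genes are the 2 per list and direction for ISO, and the 1 for SR-3420, with the largest change among those passing, provided that the average log2 CPM was 3 or more and that same-numbered samples all moved alike; other names are said to be chosen later. Patterns like a member's were sought by Pearson correlation of log2 CPM (prior count 2). On simulated counts of the ISO comparison (12044 genes) the fit recovered 172 of 197 genes changed 2-fold and called 9 others. Alternatives were DESeq2 1.42.0, RLE factors, library totals, other filters, only the compared groups, the replicate number as a block, and leaving out each sample.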

Additional observations from a re-analysis of the deposited data

Results flagged for a closer look

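The effect of an agent differed with and without lipase inhibitors, by the test of the difference itself (edgeR, adjusted over 12156 genes), for 6 members with ISO and for 3 with SR-3420. For ISO, the effect under inhibitors less that in their absence was -1.99 for Ppargc1a, -1.62 for Ppargc1b and -0.71 for Pprc1, and it was 1.35 for Esrra, 0.71 for Gabpa and 0.44 for Tfam. Each of these 6 had its sign in all 3 same-numbered sets of samples. For SR-3420 it was -1.27 for Pprc1, -0.34 for Ppargc1a and 0.51 for Tfb2m, each again with its sign in all 3 sets. The signs come from the same samples as the test, so they describe the differences and add no support. The Ppargc1a value for SR-3420 missed the threshold when any of 8 single libraries was left out. Groups had 3 samples, too few for a test of outlying samples.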

How the results depend on the processing

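The 8 counts of members past the threshold stayed within 1.5 times of the reported count in 199 of 200 recalculations, with 1 exception: for the inhibitors alone the count ranged from 0 to 1 when single samples were left out. Of 1800 recalculated changes of single members, 1729 kept their direction and their side of the threshold, 23 lost it, 12 gained it and 36 turned direction. Many recalculations left out a sample of a group outside the comparison. That touches a result only through the shared scaling, filter and spread, so the shares kept overstate how firmly the results hold. DESeq2, RLE factors and a filter at 1 CPM in 3 samples altered 0 of 72 member results each, and library totals altered 18. With library totals, Gabpa and Tfam turned to -0.15 and -0.039 for ISO, to -0.070 and -0.099 for ISO against SR-3420 and to -0.10 and -0.014 for SR-3420 with inhibitors, Gabpa turned to -0.078 for SR-3420, Tfb2m to -0.038 for SR-3420 with inhibitors, Nrf1 and Tfb2m to -0.18 and -0.094 for ISO with inhibitors, and the Ppargc1b difference for SR-3420 to 0.0098. Of these, Gabpa and Tfam with ISO were past the threshold as reported. Gabpa for SR-3420 with inhibitors was -0.0038 with no filter and -0.0008 with only the compared groups.

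With single samples left out, direction turned only for changes that did not pass. For ISO, Esrra ranged from -0.23 to 0.090 and Tfb2m from -0.15 to 0.053. For the inhibitors alone, Esrra ranged from -0.37 to 0.049, Gabpa from -0.015 to 0.068, Ppargc1b from -0.065 to 0.17 and Tfb2m from -0.11 to 0.027. For SR-3420 with inhibitors, Tfb2m ranged from -0.0074 to 0.13 and Gabpa from -0.0057 to 0.031. For the SR-3420 difference, Esrra ranged from -0.28 to 0.19 and Ppargc1b from -0.16 to 0.075, and for ISO against SR-3420 Tfb1m ranged from -0.074 to 0.099.

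The replicate number as a block moved 0 member counts by over 1.5 times. It brought the Nrf1 differences for ISO (-0.29, adjusted p = 0.047) and SR-3420 (-0.30, adjusted p = 0.046) past the threshold and turned Tfb1m for ISO against SR-3420 to 0.0033. The labels do not say what a number marks. Deviations from group means correlated between same-numbered samples at 0.11 on average, against -0.055 between samples of different numbers. The correlation was over 0.1 in 15 of 15 pairs of number 3, in 12 of 15 of number 2 and in 1 of 15 of number 1, and 12 of 18 samples correlated best with their own number. That is a hint of pairing from the data. The study's methods give 3 independent experiments, and samples are listed number by number through all treatments, which also points to pairing without stating it. Esrra and Ppargc1b were above their group mean in number 2 and below it in number 3 in every group. With the block, the Ppargc1b change with ISO under inhibitors was -0.44 (adjusted p = 1.7e-05, against 0.0058 as reported). Esrra with ISO (adjusted p = 0.95) and with SR-3420 (adjusted p = 0.084) still did not pass. Pairing was taken as given only if every pair exceeded 0.1, so no block was used in the reported tests. With the block, the differences passed for 22 respiration genes with ISO and 18 with SR-3420, against 14 and 10 as reported, and for 9 upkeep genes with SR-3420, against 4. For the inhibitors alone 1 partner, 2 regulators and 1 upkeep gene passed with the block, against 0 as reported, and for SR-3420 with inhibitors 5 regulators and 3 respiration genes, against 3 and 1. Except where given, the causes were not tested. Depth limits Tfb1m most, with 56 counts in its lowest library.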
